A study of Mus musculus with 9 samples.

Results

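Wnt ligands, their receptors and antagonists were followed across 3 mouse epithelial cell lines. The set holds the ligands Wnt4, Wnt5a, Wnt7a, Wnt7b and Wnt10a, the receptor Fzd6, the secreted antagonists Sfrp1 and Dkk3, the intracellular regulator Axin2 and the nuclear factor Tcf7l2. Axin2 and Tcf7l2 are neither ligands, receptors nor secreted antagonists, and stand for the inside of the pathway. Members were all probe sets of the array, controls aside, whose single gene symbol is one of these 10. That gave 28 of the 34945 probe sets with 1 symbol, between 1 and 5 a gene.

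Both non-tumorigenic lines came from trachea at the age of 3 weeks, the wild-type line from Gprc5a wild type and the knockout line from Gprc5a-knockout mice. MDA-F471, the tumour line, derives from lung adenocarcinoma in a female mouse with the same knockout, taken 16 months after intraperitoneal NNK, a tobacco carcinogen. The sample titles call both non-tumorigenic lines normal lung epithelial cells. The strain is given as C57/BL6 x sv129 for all 3 lines. By their labels the knockout and tumour lines share the Gprc5a deletion and differ in organ, carcinogen exposure and age. Each group is 1 line measured on 3 Affymetrix MG-430 2.0 arrays, and genotype, line and handling cannot be told apart. Nothing states that the arrays of a line are separate cultures, and a p-value here covers only their spread, which may be technical.

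Wnt proteins are secreted, lipid-modified signals that bind Frizzled receptors together with the co-receptors Lrp5 and Lrp6. In the branch that runs through beta-catenin, receptor binding stops a complex built around Axin from destroying beta-catenin, which then acts with TCF and LEF factors on target genes; other branches control cell polarity and movement without beta-catenin. In the lung, epithelial Wnt7b and mesenchymal Wnt ligands guide growth and branching, and in the adult airway the pathway bears on basal cell renewal.

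Signals are log2 values as deposited, so a difference of 1 is a 2-fold change. Calls needed a limma p under 0.05 after Benjamini-Hochberg adjustment over all 34945 probe sets together with a difference of at least 2-fold; "rose" and "fell" are used only of called differences. A log2 signal of 5.15, the 95th percentile over 27 probe sets for bacterial controls, served as the floor. A probe set with all arrays of a line under it had no level there beyond background, and folds against such a line are lower bounds. Of the 28 probe sets, 21 lay above the floor on all 9 arrays and 5 under it on all 9.

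The labels were checked first. Gprc5a read 8.63, 8.74 and 8.32 on the wild-type arrays, 7.20, 7.09 and 7.18 on the knockout arrays and 6.96, 7.02 and 7.09 on the tumour arrays; whether its probe set lies in the deleted part is unknown. Of 6 pan-epithelial markers, 6, 5 and 6 were above the floor on every array of the wild-type, knockout and tumour lines. Epcam averaged 11.74, 11.73 and 12.03 in that order and Cdh1 12.88, 12.63 and 11.92, while the keratin Krt19 averaged 10.22, 5.32 and 12.05, with 1 knockout array under the floor. For knockout minus wild-type Krt18 rose and Krt19 fell. The basal keratin Krt5 averaged 14.46, 14.38 and 8.43. The tumour line, labelled as lung adenocarcinoma, did not differ from the tracheal lines by a called amount in any of 5 alveolar type II markers measured; surfactant gene Sftpc averaged 5.72 there. Fibroblast markers, a possible source of Wnt signals, had a log2 summed signal of 9.10 to 9.25, 9.17 to 9.21 and 9.17 to 9.22 in the same order of lines, with 0 of 10 called in any comparison. The endothelial sum was 8.15 to 8.37 over all 9 arrays, with Tek and Emcn under the floor, and the leukocyte sum 9.22 to 9.47, with Ptprc and Itgam under the floor. None of the 5 endothelial markers was called by limma in any comparison; of the 6 leukocyte markers Cd68 was called, lower by 1.11 on the log2 scale in tumour than wild-type (8.03, 7.71 and 6.92 by line).

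Between the knockout and wild-type lines the members moved downwards where they were called. Of 28 probe sets 7 fell and 0 rose, or 25%, beside 4.35% of all probe sets called in either direction, 1.85% higher and 2.49% lower. The falls were in Wnt4, Wnt5a, Fzd6 and Sfrp1. Between the tumour and knockout lines 3 fell (Wnt4 and Wnt10a) and 2 rose (Wnt7a and Wnt7b), or 17.9% beside 13.4% of all probe sets (7.44% higher and 5.97% lower), a share close to the background. Between the tumour and wild-type lines 10 fell and 3 rose, or 46.4% beside 15.5% of all (8.04% higher and 7.50% lower). The last comparison shares its arrays with both others and is no separate support for them. The members were chosen with earlier results of these data known, so a share above that of all probe sets is no test of the family.

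The members' median log2 difference was -0.35 for knockout minus wild-type, -0.03 for tumour minus knockout and -0.29 for tumour minus wild-type. Over all probe sets the medians were 0.00481, 0.000925 and 0.0165. Arrays of the lines compared did not overlap for 17, 13 and 25 of the 28 probe sets, against 34.7%, 50.4% and 51.9% of all probe sets. The members' share was thus under that of all probe sets for tumour minus knockout and above it in the other comparisons.

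**Figure D1:**
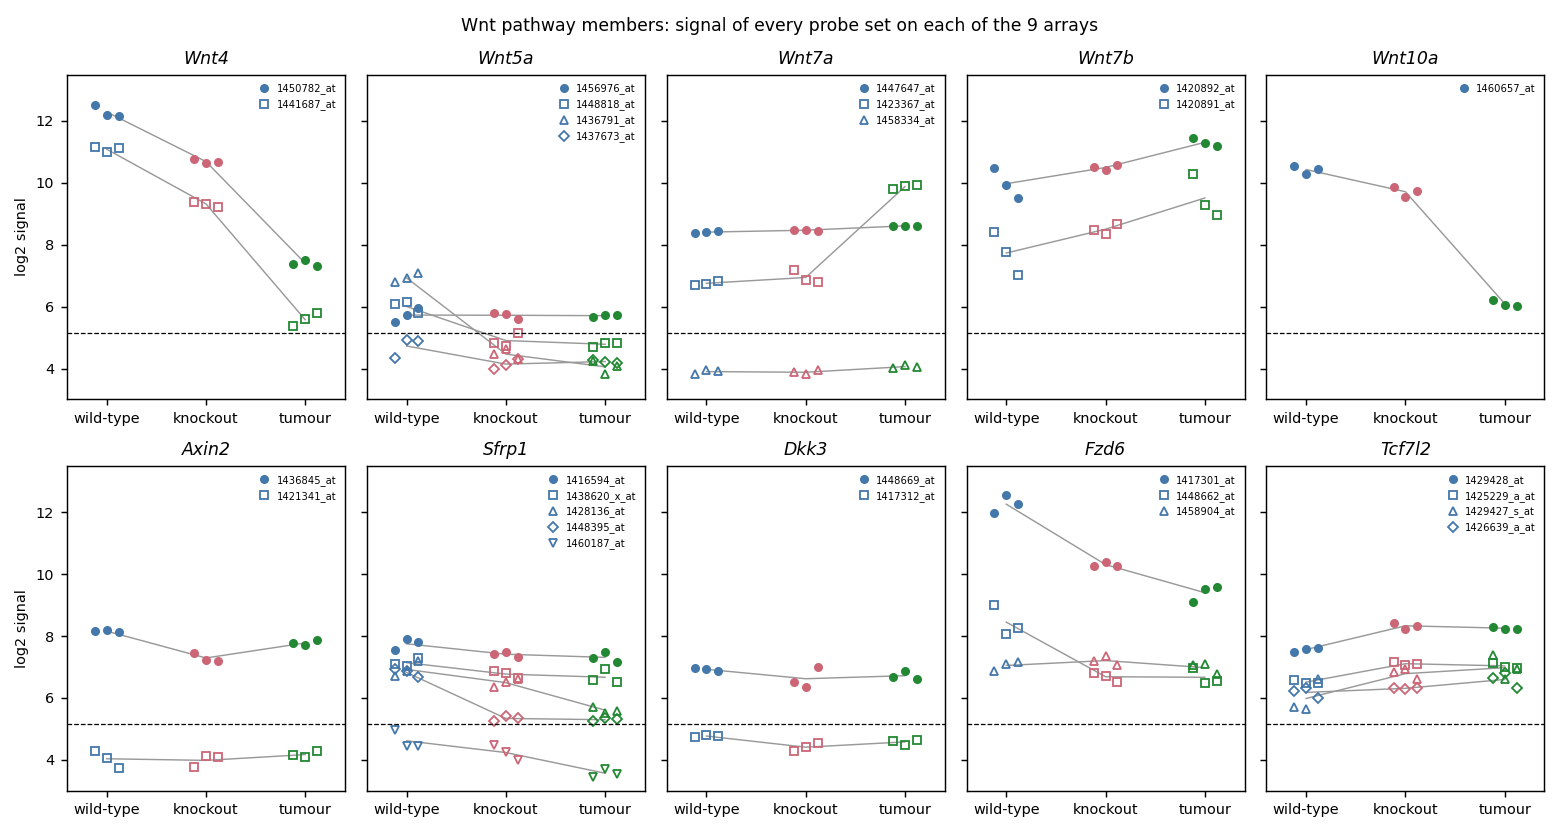
Log2 signal (vertical axis) of every probe set of the 10 members on the 3 arrays of the wild-type (blue), knockout (red) and tumour (green) lines, 1 panel a gene. Filled points are the gene's brightest probe set, open points its others, grey lines join line means, and the dashed line is the floor of 5.15. Wnt4 and Wnt10a step down to the tumour line, 1 Wnt7a probe set steps up there to between 9.80 and 9.93, and Fzd6 is highest in the wild-type line on 2 of its 3 probe sets. Levels are comparable between lines within a probe set, not between probe sets.

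Wnt4, a ligand active in kidney, reproductive tract and mammary epithelium, fell at each step from the wild-type to the knockout to the tumour line. Its brighter probe set (1450782_at) read 12.51, 12.21 and 12.16 on the wild-type arrays, 10.76, 10.63 and 10.67 on the knockout arrays and 7.38, 7.52 and 7.30 on the tumour arrays. The 3 lines did not overlap. The mean was 12.29 ± 0.19 (SD, n = 3) in the wild-type, 10.69 ± 0.07 in knockout and 7.40 ± 0.11 in tumour. Knockout was 3.04-fold below wild-type (log2 difference -1.60 ± 0.11 SE, limma adjusted p = 9.42e-07), and tumour 9.75-fold below knockout (-3.29 ± 0.11, adjusted p = 5.52e-10). Tumour was 29.6-fold below wild-type.

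The other Wnt4 probe set (1441687_at) followed the same order. It averaged 11.09 ± 0.09, 9.32 ± 0.08 and 5.58 ± 0.21 (SD, n = 3 each), with falls of 3.40-fold from wild-type to knockout and 13.4-fold from knockout to tumour. The tumour arrays, at 5.36, 5.58 and 5.79, lay between the floor and 5.96, the highest value of any bacterial control. In these bulk samples fewer cells with the transcript and less transcript per cell cannot be told apart, here and for every member below.

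Wnt10a, a ligand of hair, tooth and skin development, had 1 probe set (1460657_at) and fell in the tumour line. It read 10.55, 10.28 and 10.46 on the wild-type arrays, 9.86, 9.53 and 9.75 on the knockout arrays and 6.21, 6.07 and 6.01 on the tumour arrays. Both tracheal lines lay far above the tumour line, and they did not overlap each other. Tumour was 12.3-fold below knockout (-3.62 ± 0.11 SE, adjusted p = 2.95e-10) and 20.2-fold below wild-type (-4.33 ± 0.11, adjusted p = 5.20e-11). The tumour arrays lay just above 5.96, the highest value of any bacterial control. Knockout minus wild-type was -0.72 ± 0.11 (adjusted p = 6.55e-04), under 2-fold and so not called.

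In the tumour line, where Wnt4 and Wnt10a fell, 5 of 8 airway basal cell markers also fell against the knockout line (Krt5, Krt14, Krt15, Trp63 and Col17a1). The others, Itga6, Itgb4 and Ngfr, differed by -0.68, -0.27 and -0.13 and were not called, and Itgb4 was 0.58 above wild-type, uncalled. The log2 summed signal of all 8, to which the brightest keratins add most, was 16.25 to 16.35 on the wild-type, 16.31 to 16.33 on the knockout and 12.93 to 13.12 on the tumour arrays, with the basal-cell factor Trp63 and the hemidesmosomal collagen Col17a1 under the floor on every tumour array. The part of this difference in the fall of either ligand was not tested. Between the tracheal lines, where Wnt4 also fell, the summed signal of the basal markers overlapped, while Trp63 itself fell by 1.36 on the log2 scale. The summed signal of 6 smooth muscle markers stepped down with Wnt4, at 11.34 to 11.57, 10.30 to 10.31 and 9.28 to 9.45, with Acta2 the single marker called (11.25, 9.84 and 8.23 by line); its part was not tested either.

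Wnt7a, a ligand of limb and reproductive tract patterning, rose in the tumour line on 1 of its 3 probe sets. Probe set 1423367_at read 6.70, 6.74 and 6.82 on the wild-type arrays, 7.17, 6.86 and 6.80 on the knockout arrays and 9.80, 9.91 and 9.93 on the tumour arrays. The tracheal lines overlapped and all 3 tumour arrays stood above them. Tumour was 7.66-fold above knockout (2.94 ± 0.11 SE, adjusted p = 1.13e-09) and 8.73-fold above wild-type (3.12 ± 0.11, adjusted p = 5.58e-10). Knockout minus wild-type was 0.19 ± 0.11 (adjusted p = 0.276).

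The other Wnt7a probe sets did not follow. The brightest (1447647_at) averaged 8.41 ± 0.03, 8.47 ± 0.01 and 8.61 ± 0.01 (SD, n = 3 each), which leaves the tumour line 0.20 ± 0.08 SE above wild-type (adjusted p = 0.0506). The dimmest (1458334_at) lay under the floor on all 9 arrays. Where each gene is represented by its brightest probe set, the rise of Wnt7a is therefore not seen.

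Promoter windows are shown for Wnt4 and Wnt7a, the ligands with a called fall and rise between the tumour and knockout lines for which the RefSeq table (GRCm38.p6) holds one. It holds windows for 4 of the 10 members, Wnt4, Wnt7a, Axin2 and Tcf7l2; none was matched for Wnt5a, Wnt7b, Wnt10a, Sfrp1, Dkk3 or Fzd6. Each window runs 5′ to 3′ on the gene's strand, from 250 bases before to 50 after an annotated start, at chr4:137277385-137277684 (plus strand) for Wnt4 and chr6:91411304-91411603 (minus strand) for Wnt7a. Capitals mark GC boxes (GGGCGG on either strand), the motif of Sp factors.
Wnt4: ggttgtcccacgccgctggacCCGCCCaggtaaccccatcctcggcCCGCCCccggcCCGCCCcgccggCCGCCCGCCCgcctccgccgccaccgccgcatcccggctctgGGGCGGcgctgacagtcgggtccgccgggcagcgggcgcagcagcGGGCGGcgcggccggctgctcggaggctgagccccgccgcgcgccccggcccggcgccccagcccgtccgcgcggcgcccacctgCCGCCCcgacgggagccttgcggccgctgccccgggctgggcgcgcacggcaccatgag
Wnt7a: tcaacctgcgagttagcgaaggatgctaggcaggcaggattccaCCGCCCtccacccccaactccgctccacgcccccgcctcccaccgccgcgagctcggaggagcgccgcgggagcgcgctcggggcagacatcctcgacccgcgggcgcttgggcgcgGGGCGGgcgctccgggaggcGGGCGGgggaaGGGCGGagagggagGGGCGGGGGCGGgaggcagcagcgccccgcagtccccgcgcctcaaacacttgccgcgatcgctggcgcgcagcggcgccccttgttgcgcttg

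The Wnt4 window held 8 GC boxes, of which those starting at -181 and -177 from the start overlap, and the Wnt7a window held 6. Of all 32851 windows in the table, 35.7% held at least 1. Neither window held a TCF/LEF motif (CTTTGAA, with CTTTGAT, or else CTTTGTA and also CTTTGTT counted as forms of it on both strands; 16.9% of windows), an AP-1 motif (TGACTCA, 5.20%) or a TATA box core (TATAAA, 13.6%). GC content was 84.3% for Wnt4 and 76.0% for Wnt7a. A match is a description of the letters, and the arrays measured no binding.

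Wnt7b, a ligand of lung epithelium that acts on the developing lung mesenchyme, was highest in the tumour line on both of its probe sets. The brighter (1420892_at) read 10.49, 9.91 and 9.52 on the wild-type arrays, 10.51, 10.41 and 10.57 on the knockout arrays and 11.45, 11.28 and 11.20 on the tumour arrays. The tracheal lines overlapped, and the wild-type arrays were spread more widely than the others. Tumour was 2.53-fold above wild-type (1.34 ± 0.19 SE, adjusted p = 1.12e-04); tumour minus knockout was 0.81 ± 0.19 (adjusted p = 0.00460), under 2-fold.

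The dimmer Wnt7b probe set (1420891_at) read 8.42, 7.77 and 7.01 on the wild-type, 8.49, 8.36 and 8.66 on the knockout and 10.29, 9.28 and 8.96 on the tumour arrays. Tumour was 3.43-fold above wild-type (1.78 ± 0.35 SE, adjusted p = 0.00133). Its 2.01-fold rise over knockout (adjusted p = 0.0393) is a call close to the threshold. It was lost without any 1 of wild-type replicate 2, the 3 knockout replicates, or tumour replicate 1 or 2; without tumour replicate 1 the difference was 0.62 (adjusted p = 0.167). Without wild-type replicate 1 this probe set also rose from wild-type to knockout, by 1.11 (adjusted p = 0.0332), against 0.77 ± 0.35 (adjusted p = 0.167) with all arrays.

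Within the wild-type and the tumour line, Wnt7b signal was lower on arrays with a larger value of an RNA quality control. The beta-actin 3' minus 5' difference, which grows with degraded RNA or incomplete labelling, was 0.75, 1.09 and 1.78 on wild-type arrays 1, 2 and 3, 0.92, 0.90 and 0.95 on the knockout arrays and 0.37, 0.60 and 0.74 on the tumour arrays. Its part in the Wnt7b differences was not tested. Without wild-type replicate 3, the array with the largest control difference, tumour minus wild-type was 1.11 on the brighter probe set (adjusted p = 1.08e-04) and 1.41 on the dimmer (adjusted p = 0.00324), and both calls remained. The wild-type arrays left, at 0.75 and 1.09, still had larger control differences than every tumour array, so control and line cannot be told apart there. The summed signal of 6 pan-epithelial markers was also highest on the tumour arrays, at 15.55 to 15.57 against 13.98 to 14.06 on the wild-type and 14.12 to 14.35 on the knockout arrays, and its part was not tested. Of these, Krt8, Krt18 and Krt19 rose against both other lines and Cldn4 against wild-type alone, whereas Epcam (0.29) and Cdh1 (-0.96) were not called for tumour minus wild-type. With that wild-type array left out, 8 member probe sets were called between knockout and wild-type (1 higher and 7 lower). Between tumour and knockout 5 were called (2 higher and 3 lower), and between tumour and wild-type 14 (4 higher and 10 lower). The share of all probe sets called was not taken without this array.

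**Figure D2:**
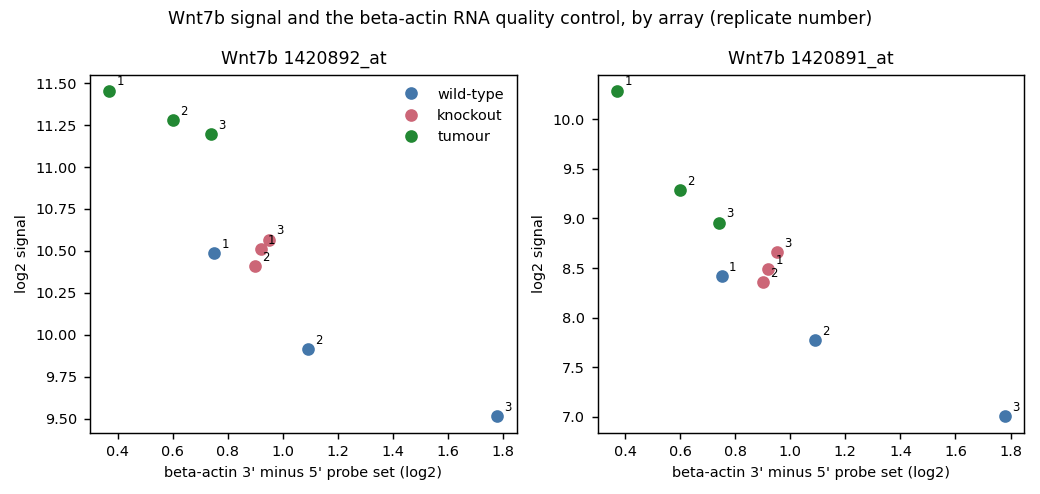
Log2 signal of the 2 Wnt7b probe sets (vertical axes, separate scales) against the beta-actin 3' minus 5' difference in log2 units (horizontal axis), 1 point an array, labelled with its replicate number. Wild-type array 3, at 1.78, has the lowest signal on both probe sets, and tumour array 1, at 0.37, the highest.

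Wnt5a, a ligand that mostly acts without beta-catenin, in cell movement and polarity, read close to the floor on most probe sets, which differed among themselves. Probe set 1436791_at read 6.79, 6.92 and 7.08 on the wild-type arrays, 4.46, 4.62 and 4.31 on the knockout arrays and 4.24, 3.83 and 4.08 on the tumour arrays. Only the wild-type arrays were above the floor. Its level was at least 3.44-fold lower in the knockout line (signal difference -2.46 ± 0.13 SE, adjusted p = 8.72e-08), and by the same bound of 3.44-fold in the tumour line (-2.88 ± 0.13, adjusted p = 4.59e-09).

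Probe set 1448818_at of Wnt5a also fell, from a wild-type mean of 6.01 ± 0.18 (SD, n = 3) to 4.90 ± 0.23 in knockout and 4.78 ± 0.07 in tumour. The signal differences were -1.10 ± 0.13 SE (adjusted p = 7.59e-05) and -1.22 ± 0.13 (adjusted p = 8.77e-06), and rest in part on background, since the dimmer means lie under the floor. The brightest probe set (1456976_at) did not differ by a called amount, at 5.73 ± 0.22, 5.72 ± 0.10 and 5.71 ± 0.02, and the remaining one (1437673_at) lay under the floor on all 9 arrays. No value of 1456976_at reached 5.96, the highest of any bacterial control, so its signal may be background. As with Wnt7a, the brightest probe set does not carry the change seen by others.

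Fzd6, a Frizzled receptor best known for hair and skin cell orientation, was highest in the wild-type line. Its brightest probe set (1417301_at) read 11.98, 12.55 and 12.25 on the wild-type arrays, 10.27, 10.38 and 10.27 on the knockout arrays and 9.10, 9.52 and 9.59 on the tumour arrays. The 3 lines did not overlap. Knockout was 3.87-fold below wild-type (-1.95 ± 0.15 SE, adjusted p = 3.11e-06) and tumour 7.26-fold below wild-type (-2.86 ± 0.15, adjusted p = 2.66e-08). The step from knockout to tumour, -0.91 ± 0.15 (adjusted p = 4.69e-04), was under 2-fold.

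A further Fzd6 probe set (1448662_at) averaged 8.45 ± 0.50, 6.68 ± 0.14 and 6.67 ± 0.27 (SD, n = 3 each). It fell 3.39-fold from wild-type to knockout (adjusted p = 1.02e-04) while tumour minus knockout was -0.02 ± 0.21 SE (adjusted p = 0.961). The order of knockout and tumour therefore rests on the brightest probe set alone. The third probe set (1458904_at) read between 6.78 and 7.36 on all 9 arrays, with no called difference.

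Sfrp1, a secreted decoy that binds Wnt proteins, had 5 probe sets, and none was highest in the tumour line by mean. Probe set 1448395_at read 6.93, 6.86 and 6.68 on the wild-type arrays, 5.26, 5.41 and 5.34 on the knockout arrays and 5.25, 5.34 and 5.30 on the tumour arrays. Wild-type stood apart and the other lines overlapped, close to the floor. It fell 2.80-fold in knockout (-1.49 ± 0.09 SE, adjusted p = 4.52e-07) and 2.88-fold in tumour (-1.53 ± 0.09, adjusted p = 7.47e-08), both against wild-type.

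Sfrp1 probe set 1428136_at fell from 6.92 ± 0.25 in the wild-type to 5.61 ± 0.09 (SD, n = 3) in the tumour line (-1.32 ± 0.13 SE, adjusted p = 4.05e-06), with the knockout line at 6.49 ± 0.13 between them. The brightest (1416594_at) and 1438620_x_at differed by less than 2-fold in each comparison, the largest difference being -0.47 for tumour minus wild-type. Probe set 1460187_at was called lower in tumour than wild-type (-1.05 ± 0.16, adjusted p = 1.94e-04) although it lay under the floor on all 9 arrays, so no fold is given; its call was lost without wild-type replicate 1 (-0.87) or tumour replicate 1 (-0.99).

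Dkk3, a secreted protein related to the Dickkopf inhibitors of Lrp5 and Lrp6, had no called difference. Its brighter probe set (1448669_at) read 6.97, 6.94 and 6.87 on the wild-type, 6.51, 6.35 and 7.0 on the knockout and 6.67, 6.86 and 6.62 on the tumour arrays. The knockout arrays spanned the range of the tumour arrays. The other (1417312_at) was under the floor on all 9 arrays.

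Axin2, a scaffold of the destruction complex and itself a common target of beta-catenin signalling, was lowest in the knockout line without reaching 2-fold. Its brighter probe set (1436845_at) read 8.16, 8.19 and 8.13 on the wild-type arrays, 7.45, 7.24 and 7.18 on the knockout arrays and 7.78, 7.70 and 7.86 on the tumour arrays. The 3 lines did not overlap. Knockout minus wild-type was -0.87 ± 0.10 SE (adjusted p = 4.46e-05), tumour minus knockout 0.48 ± 0.10 (adjusted p = 0.00131) and tumour minus wild-type -0.38 ± 0.10 (adjusted p = 0.00590). The differences exceeded the spread between arrays and missed the fold threshold. The other probe set (1421341_at) was under the floor on all 9 arrays.

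Tcf7l2, a TCF factor that carries beta-catenin to target genes, was higher in both Gprc5a-knockout lines, again by less than 2-fold. Its brightest probe set (1429428_at) read 7.49, 7.58 and 7.62 on the wild-type, 8.43, 8.24 and 8.32 on the knockout and 8.29, 8.24 and 8.23 on the tumour arrays. The wild-type arrays lay below the rest, and the knockout and tumour arrays overlapped. The log2 difference from wild-type was 0.77 ± 0.09 SE for knockout (adjusted p = 5.42e-05) and 0.69 ± 0.09 for tumour (adjusted p = 3.50e-05). Tumour minus knockout was -0.08 ± 0.09 (adjusted p = 0.538).

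The other 3 Tcf7l2 probe sets had differences from wild-type between 0.13 and 0.99 in the same direction, none called. Probe set 1429427_s_at read 5.69, 5.65 and 6.61 on the wild-type arrays; without wild-type replicate 3 it rose by 1.11 in the knockout line (adjusted p = 0.00125) and by 1.31 in the tumour line (adjusted p = 1.22e-04). That array also had the largest beta-actin 3' minus 5' difference, 1.78, whose part here was not tested.

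The Axin2 window of the RefSeq table (GRCm38.p6, chr11:108920099-108920398, plus strand) is shown because the gene serves as a readout of TCF and LEF factors; capitals again mark GC boxes.
Axin2: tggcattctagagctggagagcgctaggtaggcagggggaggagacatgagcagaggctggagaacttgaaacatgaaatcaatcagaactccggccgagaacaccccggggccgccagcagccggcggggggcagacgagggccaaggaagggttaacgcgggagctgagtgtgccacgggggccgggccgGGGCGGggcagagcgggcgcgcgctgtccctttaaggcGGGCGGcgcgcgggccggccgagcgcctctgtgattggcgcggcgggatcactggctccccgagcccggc

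The Axin2 window held 2 GC boxes and no TCF/LEF motif as spelled out above. Of the 2 Tcf7l2 windows, the one at chr19:55895071-55895370 held a single TCF/LEF motif, CTTTGTT, at -14 from the start; the other held none. No match says only that these letters are not in this window.

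**Figure D3:**
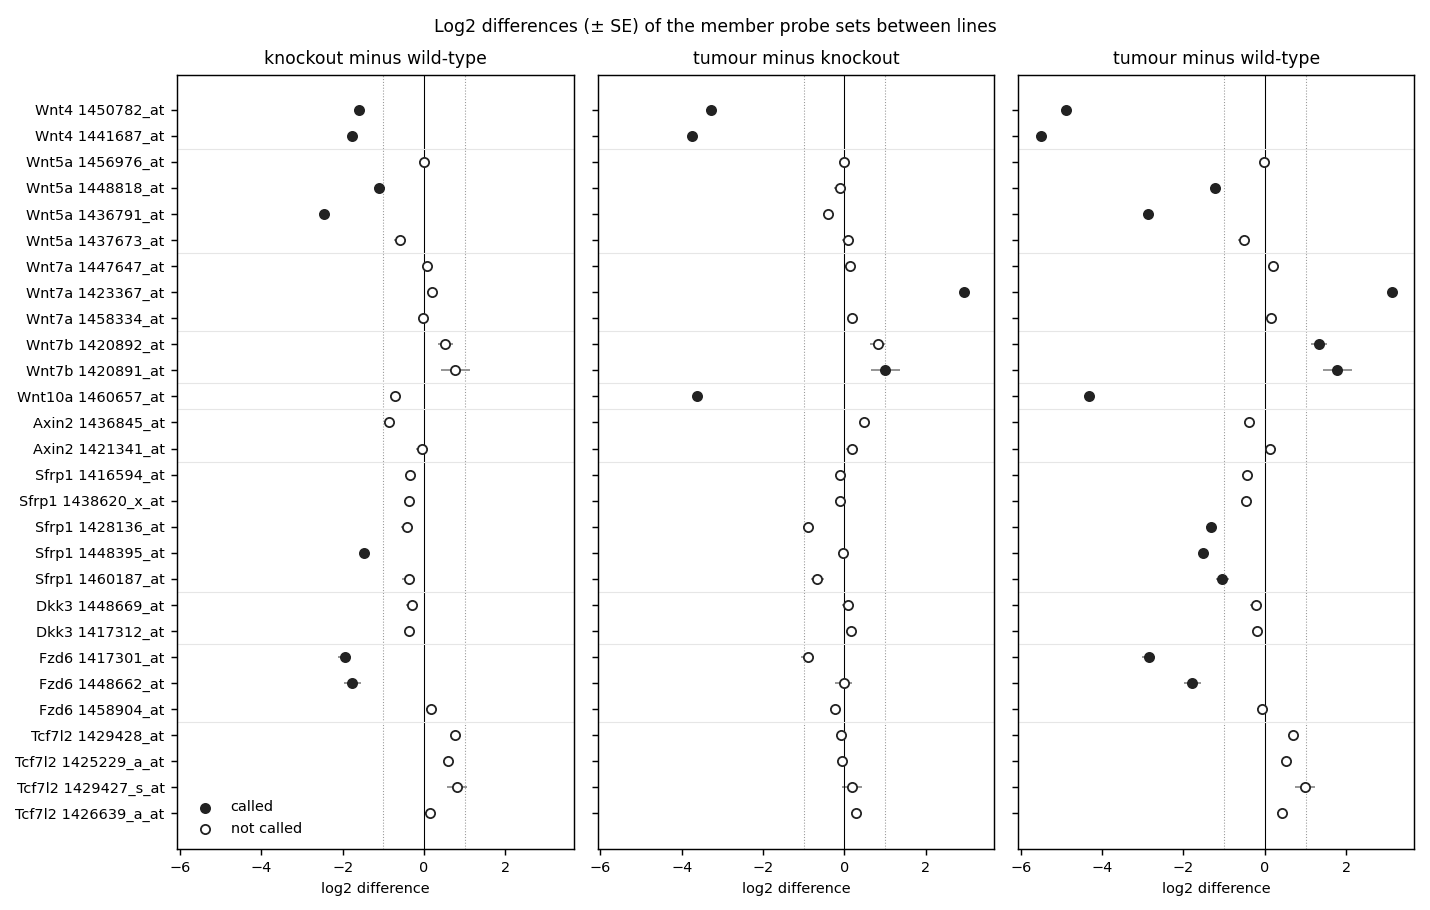
Log2 difference with its standard error (horizontal axis) of each of the 28 probe sets (rows, grouped by gene) in the 3 comparisons. Filled points are called, open points are not, and dotted lines mark 2-fold. All 7 called points lie left of 0 for knockout minus wild-type, and the Wnt7a and Wnt7b points to the right for the tumour line, while probe sets of Wnt5a, Wnt7a, Sfrp1 and Fzd6 differ among themselves.

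Opposite calls within a gene did not occur: where a member had several called probe sets in a comparison they had the same direction. By role, the Wnt ligands had 4 of 12 probe sets lower and 0 higher for knockout minus wild-type, 3 lower and 2 higher for tumour minus knockout, and 5 lower and 3 higher for tumour minus wild-type. The receptor had 2 of 3 lower against wild-type in both other lines, and the antagonists 1 of 7 lower in knockout and 3 of 7 in tumour, 1 of them under the floor throughout. Axin2 and Tcf7l2 had 0 of 6 called in any comparison by limma with the fold threshold. Of all probe sets 4.35%, 13.4% and 15.5% were called in the 3 comparisons, in the order given for the ligands. The receptor's 3 probe sets all belong to Fzd6, and probe sets of 1 gene are not separate members.

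The genes whose signals ran most like those of 4 members were found by the root mean square difference of centred log2 values over the 9 arrays, each gene by its brightest probe set. For Wnt4 they were Fads2b (0.18) and Mndal (0.19), for Wnt10a Plcd1 (0.18) and Plagl1 (0.20), for Fzd6 Cd5 (0.18) and Upk3bl (0.20), and for Wnt7b Cars (0.11) and Mrpl19 (0.14). Mndal, for example, averaged 11.56, 10.10 and 6.73 over the same sequence of lines as above. The 9 arrays fall in 3 lines, so they are not 9 independent conditions.

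The other genes of the pathway were taken from a list of 102, of which 100 had a probe set with 1 symbol, each tested by its brightest over 18193 genes. For knockout minus wild-type 4 rose and 11 fell, or 15 of 100 beside 4.88% of all genes (1.90% higher and 2.98% lower); for tumour minus knockout 8 rose and 11 fell, 19 of 100 beside 14.2% (7.79% and 6.38%); and for tumour minus wild-type 10 rose and 16 fell, 26 of 100 beside 16.6% (8.09% and 8.46%). Their medians were -0.08, -0.04 and -0.12. Over all genes the medians were -0.00423, 2.73e-05 and 0.0101. This list too was chosen with earlier results of these data known, so its shares are no test of the pathway. The counts by role below rest on few genes each and are to be read beside the same shares of all genes.

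Among the 14 other ligands 2 were called for knockout minus wild-type (14.3%). Wnt9a rose in the knockout line by 1.03 ± 0.11 SE and Wnt3a, a classic activator of beta-catenin signalling, fell by 1.02 ± 0.11. Neither was called between tumour and knockout, and 0 of 14 ligands were. All genes had 4.88% called for knockout minus wild-type and 14.2% for tumour minus knockout. Of the genes for ligand processing, Porcn, the acyltransferase that attaches the lipid to Wnt proteins, rose by 1.06 ± 0.11 in the knockout line, and Wls, the carrier that takes Wnt proteins to the cell surface, fell by 1.39 ± 0.12 from knockout to tumour. Notum, an extracellular enzyme that removes the lipid, averaged 6.87 in wild-type, 8.0 in knockout and 6.30 in tumour; it rose by 1.13 ± 0.16 and then fell by 1.70 ± 0.16.

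Among 15 other receptors and co-receptors, 3 fell and 0 rose for knockout minus wild-type, and 3 fell and 1 rose for tumour minus knockout. Of all genes 4.88% and 14.2% were called in these comparisons. Fzd3, like Fzd6 a Frizzled linked to cell polarity, averaged 8.62 in wild-type, 7.03 in knockout and 5.55 in tumour and fell at both steps, by 1.59 ± 0.14 SE and 1.48 ± 0.14. Fzd7 fell by 1.19 ± 0.10 and the receptor kinase Ror1 by 1.11 ± 0.13 in the knockout line. Fzd2 fell by 1.28 ± 0.10 and Ptk7 by 1.30 ± 0.19 from knockout to tumour. Fzd4 was 1.36 ± 0.10 higher in the tumour than in the wild-type line, and Ryk 1.05 lower. The co-receptors Lrp5 and Lrp6 were not called.

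The R-spondin arm, which sets how many Frizzled receptors stay on the cell surface, went both ways in the tumour line. Lgr4, an R-spondin receptor, averaged 12.59 in wild-type, 11.46 in knockout and 9.02 in tumour, falling by 1.13 ± 0.10 SE and then by 2.43 ± 0.10. Its relatives Lgr6 and Lgr5 rose from knockout to tumour, by 2.10 ± 0.13 and 1.29 ± 0.11. Rnf43, a ligase that removes Frizzled receptors, fell by 1.04 ± 0.13 in the knockout line.

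Among 13 other antagonists measured, Sostdc1, an inhibitor of both Wnt and BMP signals, was the single one called. That is 7.69% in either comparison with wild-type, beside 4.88% (knockout) and 16.6% (tumour) of all genes. Sostdc1 was at least 33.2-fold lower in both other lines than in wild-type, where it averaged 10.20 ± 0.12 (SD, n = 3). Dkk1, the best-known inhibitor of Lrp6, averaged 5.05, 4.78 and 4.83, means under the floor of 5.15. Dkk2, Dkk4, Sfrp2 and Wif1 lay under the floor on every array, and Sost on every wild-type and tumour array. A change in these antagonists could be missed. Of 18 genes of the destruction complex and Dishevelled, only the kinase Csnk1e was called, higher in the tumour line by 2.30 ± 0.14 SE than in the knockout line. That is 5.56% for tumour minus knockout, beside 14.2% of all genes. Beta-catenin itself, Ctnnb1, averaged 13.24, 12.98 and 13.42 and was not called.

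Of 11 nuclear factors measured, Tle4, a Groucho co-repressor, averaged 7.33, 5.96 and 9.70, with a fall of 1.37 ± 0.11 SE in the knockout line and a rise of 3.74 ± 0.11 from knockout to tumour. Its relative Tle3 fell by 1.32 ± 0.09 over the latter step. Ctnnbip1, which blocks beta-catenin from TCF factors, was 1.78 ± 0.12 lower in tumour than wild-type. Lef1 was not called.

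Targets known from other tissues had no common direction. Of 15 measured, Notum and Rnf43 among them, 2 rose and 2 fell in the knockout line and 3 rose and 2 fell from knockout to tumour. Over all genes the called shares were 4.88% and 14.2%. The cyclin gene Ccnd1 averaged 9.36 in wild-type, 11.58 in knockout and 12.86 in tumour, rising by 2.22 ± 0.12 SE in the knockout line. Sp5 rose by 2.01 ± 0.09 and Sox9 fell by 1.94 ± 0.12 from knockout to tumour; Ascl2 fell by 1.15 ± 0.10 in the knockout line. Myc was 1.37 ± 0.14 higher in the tumour than in the wild-type line. Ccnd1 and Myc also answer to many other signals.

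Planar cell polarity genes, the branch in which Fzd6 and Fzd3 act, had 2 of 9 lower in the knockout line and 3 lower and 1 higher from knockout to tumour. The same comparisons called 4.88% and 14.2% of all genes. Celsr2, an atypical cadherin, fell by 2.74 ± 0.13 SE and Vangl1 by 1.03 ± 0.11 over the latter step. Prickle1 averaged 8.04, 6.48 and 8.14 and so was lowest in the knockout line, by 1.56 ± 0.11 against wild-type. Prickle2 fell by 1.25 ± 0.10 in the knockout line, and Daam1 fell by 1.28 ± 0.13 between wild-type and tumour.

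**Figure D4:**
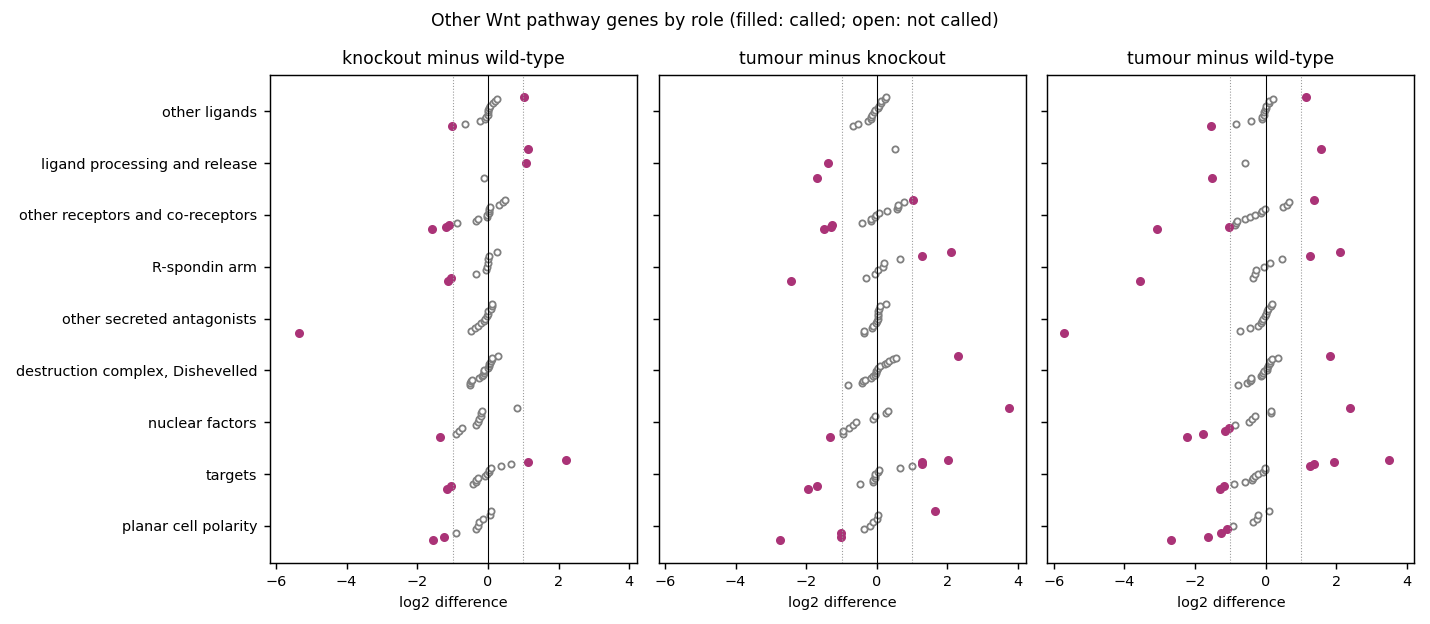
Log2 differences (horizontal axis) of 100 further Wnt pathway genes, each by its brightest probe set, in rows by role and in 3 panels by comparison; a gene with 2 roles appears in both rows. Filled points are called and open points are not, and dotted lines mark 2-fold. Sostdc1 is the point near -5.35 in the left panel.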

How the data were processed

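RNA of 9 arrays, 3 a line, had been purified on silica columns, DNase-treated and labelled as biotin cRNA, per the labels' protocols. The deposited values are log2 signals, 1 a probe set and array, with array medians between 6.28 and 6.34; how the authors corrected background, summarized probes and normalized is not stated in the labels. Arrays give no counts, so their number limits the precision.

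Of 45101 probe sets, 64 were controls, 34945 carried 1 gene symbol in the platform's annotation, 932 several and 9160 none; 34741 single-symbol probe sets were matched through Entrez IDs to the gene table (GRCm38.p6). Limma 3.58.1 in R 4.3.3 (lmFit and eBayes without trend, 6 residual degrees of freedom, two-sided) was fitted to all 9 arrays, once on all single-symbol probe sets for the members and once on 18193 genes by their brightest probe set for the rest of the pathway. The procedure was tested on simulated data. The members and lists were chosen with earlier results of these data known. Beside all members, the text names up to 3 called genes a role and comparison, the nearest genes in pattern, and the listed markers; Dkk1, Lrp5, Lrp6, Ctnnb1 and Lef1 were added after their values were seen, to show uncalled core genes. Alternatives changed the normalization, centring, filter, probe set types, fold threshold, trend, arrays fitted, feature summary, replicate block and each replicate.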

Additional observations from a re-analysis of the deposited data

How the results depend on the processing

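Of 25 called differences of member probe sets, 23 kept their direction and their call under each of up to 16 alternatives; the exceptions are those of Wnt7b 1420891_at between tumour and knockout lines and of Sfrp1 1460187_at between tumour and wild-type lines. The former was also lost with quantile normalization (0.95). Tcf7l2 1429427_s_at passed the threshold with median centring (1.00, tumour minus wild-type), and gained calls without single replicates. Counts of called features for knockout minus wild-type, tumour minus knockout and tumour minus wild-type moved mainly with the threshold. Without a fold threshold they were 15, 11 and 21 member probe sets and 35, 46 and 56 other pathway genes. At 1.5-fold they were 13 and 9 member probe sets and 23 and 30 other pathway genes in the first 2 comparisons. Without the dimmest 40% of probe sets 4 of 19 member probe sets were called between knockout and wild-type lines. The share of all features called was not taken at these changed thresholds or after this filter. Such counts therefore do not set the members or the pathway apart from other genes. Counted as genes out of 10, the brightest probe set gave 2, 2 and 4 calls, beside 4.88%, 14.2% and 16.6% of all genes. Averaging all probe sets of a gene gave 3, 3 and 6. Leaving out 1 replicate gave 7 to 8, 4 to 5 and 12 to 14 member probe sets, and 13 to 15, 17 to 21 and 22 to 27 other pathway genes. The share of all features called was not taken for averaged probe sets or with a replicate left out.

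Signs changed only for uncalled differences near 0. Wnt5a 1456976_at, tumour minus knockout, was 0.014 with quantile normalization and 0.006 with median centring, and Fzd6 1448662_at was 0.001 with median centring. Leaving out 1 replicate gave, across 0, Axin2 1421341_at from -0.198 to 0.081 for knockout minus wild-type and from -0.010 to 0.268 for tumour minus wild-type, Wnt5a 1456976_at from -0.111 to 0.104 for knockout minus wild-type and from -0.125 to 0.090 for tumour minus wild-type and from -0.071 to 0.023 for tumour minus knockout, Fzd6 1448662_at from -0.171 to 0.075 for tumour minus knockout, Wnt7a 1458334_at from -0.053 to 0.009 for knockout minus wild-type, Dkk3 1448669_at from -0.038 to 0.287 for tumour minus knockout, Wnt5a 1448818_at from -0.216 to 0.008 for tumour minus knockout, Tcf7l2 1429427_s_at from -0.009 to 0.371 for tumour minus knockout and Fzd6 1458904_at from -0.153 to 0.028 for tumour minus wild-type. The replicate block gave the same counts as the fit without it, 7, 5 and 13 member probe sets and 15, 19 and 26 other genes. The replicate numbers did not pair the arrays: deviations of same-numbered arrays correlated between -0.13 and 0.31, and 4 of 9 arrays matched their own number best. Probe sets near the floor of 5.15 limit Wnt5a, Sfrp1 and the tumour level of Wnt4. The tumour level of Wnt10a lay just above the highest bacterial control.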
